A study of Mus musculus with 18 samples.

Results

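Transcripts of the proteasome, its regulators and its assembly factors were followed in single mouse oocytes. The genes were all protein-coding genes whose GENCODE vM21 symbol is Psma, Psmb, Psmc, Psmd, Psme, Psmf or Psmg followed by a number, and 49 of the 47069 genes in the deposited tables met that rule. Of these, 19 are core genes (Psma and Psmb), 20 are cap genes (Psmc and Psmd) and 10 are activators, an inhibitor and assembly chaperones. Oocytes were taken at the germinal vesicle (GV) stage, when the immature oocyte is arrested with an intact nucleus, and at metaphase II (MII), the stage of the mature egg. All came from C57BL/6JAusb mice, and the labels name no transgene or mutation. Young control mice were 4 weeks old and aged control mice 12 months old, and both drank water without additive. A further set of mice of 12 months drank water with nicotinamide mononucleotide (NMN, from which cells make the coenzyme NAD) at 2 g/L for 4 weeks. The 16 oocytes used were 7 at GV (2 from young controls, 2 from aged controls and 3 from NMN mice) and 9 at MII, 3 from each of these.

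The proteasome is the cell's main machine for degrading proteins tagged with ubiquitin. Its core is a barrel of alpha rings, which gate the entrance, and beta rings, which hold the catalytic subunits. A cap on the barrel binds the tagged protein, removes the ubiquitin and feeds the unfolded chain inward. The cap has a base, with a ring of ATPases, and a lid. In oocytes the proteasome degrades cyclin B and securin at the exit from each metaphase, so that it is needed for meiosis to proceed. A growing oocyte stores mRNA, and during maturation transcription is silent, so that mRNA levels in that interval are set by degradation and by changes of the poly(A) tail.

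Library totals lay between 2756181 and 5586894 counts. In the text a level is a scaled CPM (the gene's count relative to its library's total, scaled between libraries), and ± is the SD between oocytes. These are shares of a library, so a change in the total RNA of an oocyte does not show in them. Per the labels the nucleus was pelleted and the supernatant used for the library, and an MII oocyte has no nucleus, so GV and MII libraries may not hold the same fraction of the cell. Since the labels do not tie oocytes to mice, a group counts as a single sample here, and no test between groups is given. In its place a gene was counted as lower or higher when the log2 ratio of mean levels, with 1 CPM added, passed a 2-fold difference and the oocytes of the groups did not overlap. Folds given for single genes are plain ratios of mean levels. Intervals and floors cover counting error only. Of the 49 genes, 45 passed the filter on low counts. A gene that passed through the group in which it is high had to differ, so counts are given out of all 49 and medians over the genes that passed are descriptions.

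Genes encoded by mitochondrial DNA took over 20% of the counts in 3 oocytes, MII young control 1 (24.4%) and MII aged NMN 1 and 2 (43.0 and 33.2%), against 2.76 to 8.55% in GV oocytes. The 2 NMN oocytes also had the fewest detected genes, 6400 and 5640. Of the main counts that rest on these 3 oocytes, those of single comparisons and of all oocytes are given with and without them. The count of genes lower or higher in all 3 maturation comparisons is given only with them. Oocyte markers (11 genes such as Gdf9 and Zp3) summed to 4424 to 24409 CPM in the other groups and 2201 to 6134 CPM in MII NMN oocytes, where 9 of the 11 had a count. Markers of cumulus and granulosa cells (12 genes) summed to between 0.770 and 75.8 CPM at GV and reached 297 CPM at MII (lowest 0), with a count in 2 to 5 of the 12 per GV group and in 2 to 9 per MII group. Their part in the results was not tested.

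The 3′ ends of the transcripts are shown first, because in maturing oocytes a U-rich cytoplasmic polyadenylation element near the end of an mRNA can direct lengthening of its tail. TTTTAT or TTTTAAT was searched on the mRNA strand in the last 100 bases of the 3′ UTR of the annotated main transcript. A shorter 3′ UTR was searched whole (73 bases in Psmb5), so windows were not of equal length. It was found in 6 of the 49 genes (12.2%), against 19.97% of the 10475 genes that passed the filter on low counts and had a 3′ UTR long enough to search. The 6 windows, each 30 bases of the 3′ UTR in the last exon and written 5′ to 3′ with the element in capitals, read
Psma1: tataccaatgtTTTTATatgaagaaaataa
Psma5: tgtgtgtgtttTTTTATgaagtctgtacat
Psmb1: tttttgcttttTTTTAATaaacttctgttc
Psmb3: tttgtttttctTTTTAATaaaattgccttt
Psmg1: gatgttttgtaTTTTATtctggcttgggat
Psmg3: tgggaagatttTTTTATtaaaaataaatct
On GRCm38 they lie at chr7:114264658-114264687 (minus strand), chr3:108279911-108279940 (plus strand), chr17:15475028-15475057 (minus strand), chr11:97713466-97713495 (plus strand), chr16:95979965-95979994 (minus strand) and chr5:139823619-139823648 (minus strand), in the order given. In Psmb1 and Psmb3 the element runs into the polyadenylation signal AATAAA. Psmd7 and Psmd11, whose levels were higher at MII in at least 1 condition, held neither form in that window, nor did Psmb5 and Psmb7, 2 catalytic genes with very low MII levels. Around the polyadenylation signal, in capitals, these 4 genes read
Psmd7: tcaaagatacaATTAAAtggcttggttttt
Psmd11: tgagttccAATAAAataattttttttttca
Psmb5: atggctatAATAAAtaatagtacctctttc
Psmb7: aaataaataAATAAAaagacaaaaaactta
at chr8:107580381-107580410 (minus strand), chr11:80473216-80473245 (plus strand), chr14:54614120-54614149 (minus strand) and chr2:38588036-38588065 (minus strand). AATAAA or ATTAAA stood in the last 40 bases of 42 of the 49 genes (85.7%) and of 77.6% of those 10475 genes. The annotated ends need not be the ends used in oocytes, and a match of letters is a description only.

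Across maturation the proteasome genes were lower at MII in most roles, and a few were higher. In young controls 21 of the 49 were lower in MII than in GV oocytes and 4 were higher, where 15.4% and 16.6% of the 12161 genes that passed the filter were. In aged controls 22 were lower and 4 higher, with 25.9% and 8.33% of all genes in those directions. In aged NMN mice 26 were lower and 0 higher, with 26.8% and 3.34% of all genes. Without the oocytes over 20% mitochondrial counts, 25 were lower and 5 higher in young controls, where 18.8% and 30.8% of all genes were. In NMN mice 27 were then lower and 3 higher with 1 MII oocyte left, where 36.3% and 16.6% of all genes were. Without GV young control 2-2, 9 genes were higher in young controls. Without GV aged control 2-1, 2 were higher in aged controls, and without MII aged NMN 1 or 2, 1 was higher in NMN mice. Leaving out an oocyte loosens the no-overlap rule for every gene, and these last counts are given without the share of all genes.

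The 3 maturation comparisons share no oocyte, and 17 of the 49 genes were lower in all 3, as were 8.56% of all genes. They were 7 core genes (Psma3, Psma6, Psmb1, Psmb4, Psmb5, Psmb6 and Psmb7), 4 ATPases (Psmc2, Psmc3, Psmc4 and Psmc5), the lid genes Psmd6 and Psmd14, the base chaperone Psmd10, the activator gene Psme2, the inhibitor gene Psmf1 and the core chaperone Psmg4. None was higher in all 3 (0.469% of all genes were), and Psma7 and Psmd7 were higher in 2. Over all 16 oocytes, every MII oocyte lay below every GV oocyte for 17 of the 49 genes, against 6.98% of all genes. In TPM (a share of transcripts, per length) that count was 15 (6.65% of all genes), with Psmc4 and Psme2 no longer among them. It was 19 without the 3 oocytes of high mitochondrial share (9.43% of all genes). Within batch 1 it was 22 (13.9% of all genes), and within batch 2 it was 23 (15.8%). For 0 of the 49 did every MII oocyte lie above every GV oocyte, where 0.271% of all genes did. That count was 1 without the oocytes of high mitochondrial share (2.29% of all genes), 0 within batch 1 and 2 within batch 2 (8.43%).

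Each gene counted as lower or higher was also looked at with 1 oocyte left out at a time. In young controls 18 of the 21 lower and 3 of the 4 higher genes still passed whichever oocyte was left out, in aged controls 19 of 22 and 1 of 4, and in NMN mice 26 of 26. Psma2 no longer passed without GV young control 2-2, Psma5 without MII young control 2-1 or GV young control 1, and Psmd6 without MII young control 2 or 2-1. In aged controls Psmb11 and Psmg2 no longer passed without GV aged control 2-1, nor Psmd4 (log2 ratio -0.49) without GV aged control 1. Psmd7 there was at 0.98 without MII aged control 2-1, just under the threshold of 1.

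Other genes, and Psmd6 with a different oocyte left out, still passed while their fold moved by more than 1.5 times. Without MII young control 1 the log2 ratio was -3.03 for Psma3, -6.88 for Psmb1, -2.37 for Psmb2, -2.10 for Psmd6 and -2.67 for Psmd10 in young controls. Without GV young control 1 it was -3.31 for Psmb5, -5.10 for Psme2, -3.41 for Psmd14, 2.29 for Psmc6, 3.73 for Psmd7 and 2.36 for Psmd11. Leaving out GV young control 2-2 gave -3.18 for Psmc2, -1.81 for Psmd14, -2.28 for Psme2b, 1.65 for Psmd7 and 4.56 for Psmd11. Leaving out MII young control 2 gave -4.82 for Psmc2. The ratio of Psmc5, -2.40 with all oocytes, was -3.15 without MII young control 1 and -3.07 without GV young control 1. Without GV young control 2-2 it was -1.11, near the threshold. These shifts left each direction as it was. In aged controls the ratio was -3.26 for Psmc2, -2.83 for Psmc4 and 2.81 for Psmd3 without GV aged control 1, and -4.48 for Psmc4 without GV aged control 2-1. It was -4.78 for Psmb4, -2.84 for Psmd14 and -3.56 for Psme2 without MII aged control 2-1, and -6.19 for Psmb5 and -5.71 for Psmf1 without MII aged control 2. In MII NMN oocytes the whole level of Psma6, Psmb1, Psmb5, Psmc2, Psme2 and Psmg4 came from MII aged NMN 2-1, and that of Psmb4 from MII aged NMN 2.

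**Figure D1:**
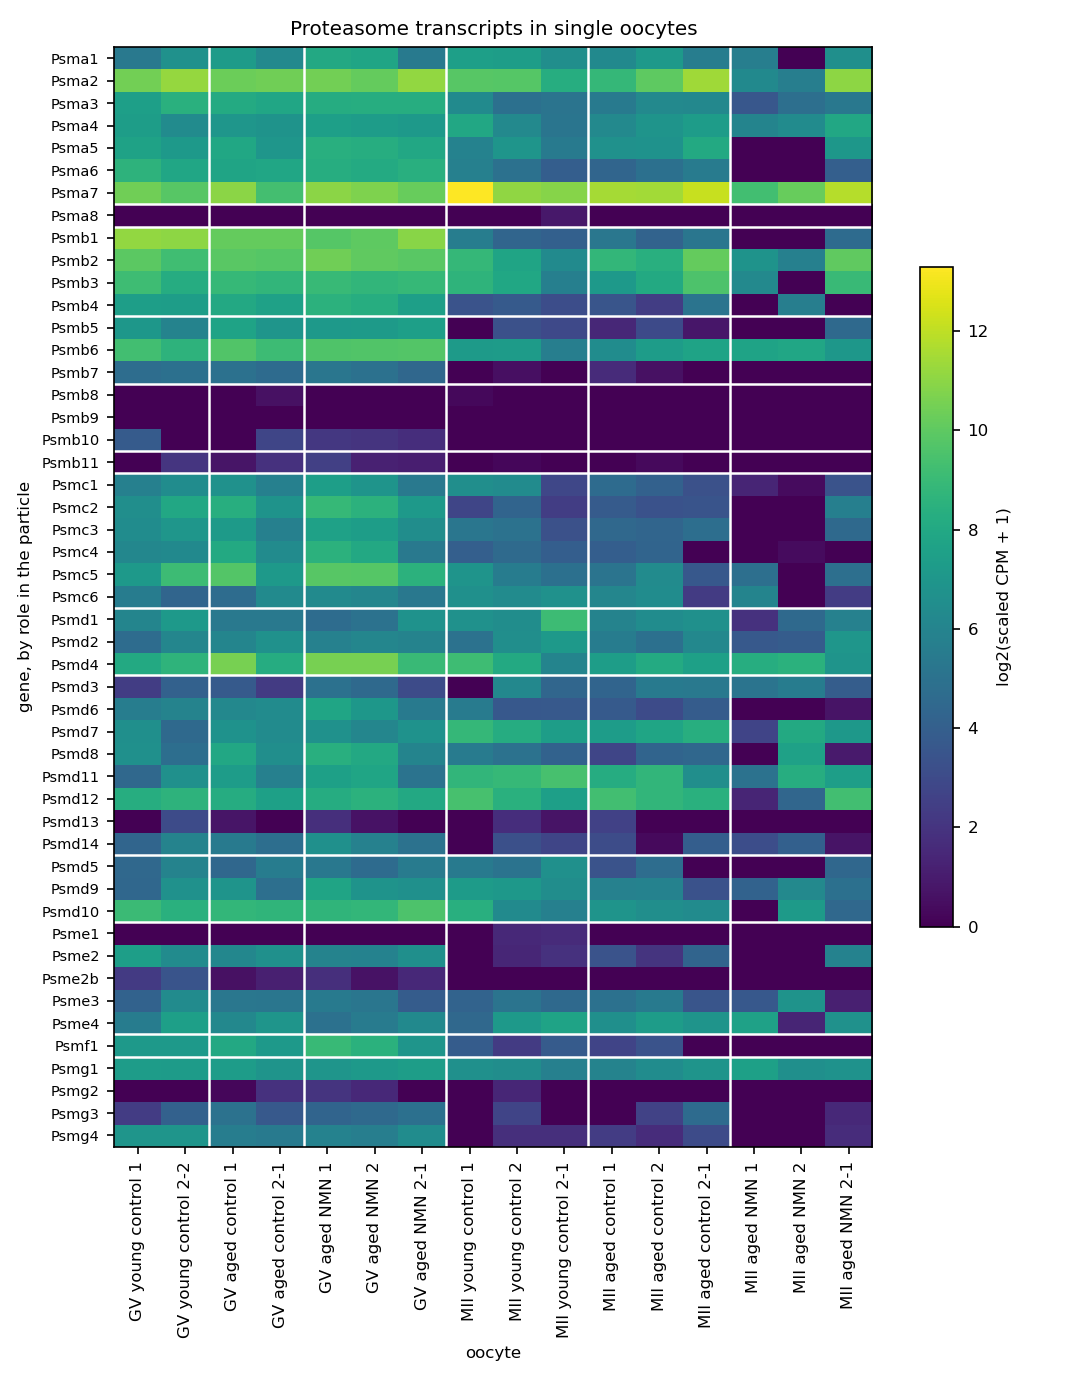
Level of each of the 49 genes (rows, grouped by role from alpha ring to core chaperones) in each of the 16 oocytes (columns), as log2 of scaled CPM with 1 added; white lines part roles and groups. The columns of MII aged NMN 1 and 2 are dark in most rows, and Psma7 stays bright in every column.

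Core and cap medians lay apart in young controls and close together in aged mice. The median log2 ratio of the 16 core genes that passed the filter was -1.83 in young controls, -1.65 in aged controls and -2.03 in NMN mice. The 20 cap genes had medians of -0.18, -1.73 and -1.98. All genes had medians of 0.35, -0.29 and -0.82. The young core median was thus 1 log2 unit or more below both the cap and the gene median. The young cap median was 0.65 in batch 1 alone and -1.64 in batch 2 alone, so its sign depended on the batch. Without GV aged control 2-1 the core median of aged controls was -0.74, without GV aged control 1 their cap median was -1.13, and without MII aged NMN 2-1 the core median of NMN mice was -3.64.

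**Figure D2:**
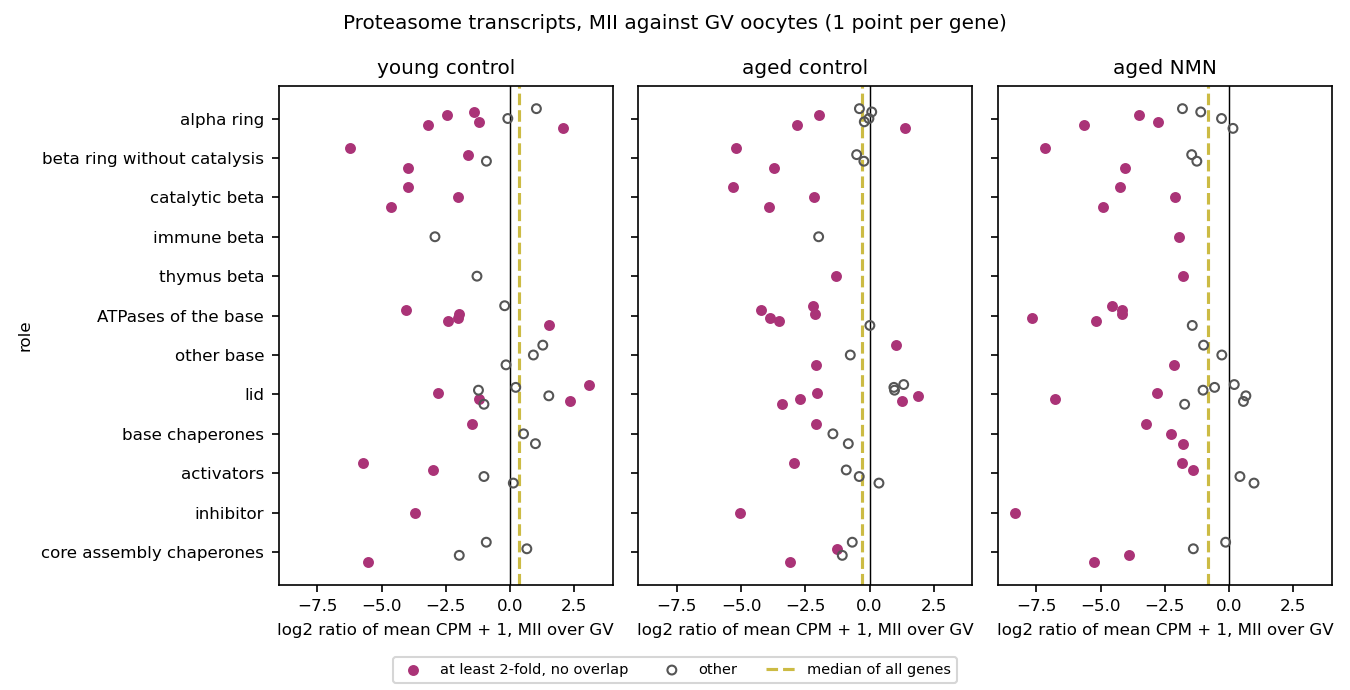
Log2 ratio of mean level (1 CPM added), MII over GV, for each gene that passed the filter, by role, in the 3 conditions; filled points are at least 2-fold with no overlap between oocytes, and the dashed line is the median of all genes. The 3 catalytic beta genes lie between -5.30 and -2.04 in every condition, and the lid genes lie on both sides of 0.

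Of the 3 catalytic genes, Psmb5 and Psmb7 differed more between stages than Psmb6. Psmb5, the chymotrypsin-like subunit, was at 128 and 59.8 CPM in GV young controls, 205 and 121 in aged controls and 142, 148 and 181 in NMN oocytes. At MII it was at 0, 8.73 and 6.62 CPM in MII young controls, 1.76, 7.01 and 0.728 in aged controls and 0, 0 and 21.9 in NMN oocytes. The lowest GV oocyte was thus above the highest MII oocyte. The mean was 18.4-fold lower at MII in young controls, 51.4-fold lower in aged controls and 21.5-fold lower in NMN mice. Of the 50-base words of the main Psmb5 transcript, 57.1% also occur in other genes' transcripts, so that reads may have been split between them.

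Psmb7, the trypsin-like subunit, was at a similar level in all GV oocytes. It was at 26 and 29 CPM in GV young controls, 30.4 and 24.3 in aged controls and 35.9, 29.6 and 20.4 in NMN oocytes. MII oocytes had 0, 0.468 and 0 CPM in MII young controls, 2.12, 0.501 and 0 in aged controls and 0, 0 and 0 in NMN oocytes. Only 3 of the 9 MII oocytes held a count, 3, 12 and 2 counts, against 53 to 173 counts in each GV oocyte. Pooled over MII young controls this was 0.198 CPM before scaling (exact 95% Poisson interval 0.0407 to 0.577), and over GV young controls 26.9 CPM (23.4 to 30.7). With 0 counts in the NMN group, the fold there is at least 85.4, set by a floor of 3 counts over the group, and in aged controls it was 31.4-fold.

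Psmb6, the caspase-like subunit, was detected in every MII oocyte. It was at 609 and 381 CPM in GV young controls, 821 and 550.4 in aged controls and 801, 831 and 849 in NMN oocytes, and at 153, 157 and 50.3 CPM in MII young controls, 88.3, 160.3 and 206 in aged controls and 212, 235 and 129 in NMN oocytes. Every MII oocyte was below every GV oocyte. The means differed by 4.13, 4.53 and 4.3-fold in young controls, aged controls and NMN mice. In TPM, Psmb6 was at 546 to 1476 in GV and 169 to 401 in MII oocytes, Psmb5 at 74.7 to 318 and 0 to 29.7, and Psmb7 at 15.4 to 31.9 and 0 to 2.95. The order of the 3 catalytic genes per length was Psmb6, Psmb5, Psmb7 in the ranges of GV oocytes, with no overlap between neighbours.

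The immune counterparts of these subunits, which replace them in cells exposed to interferon, were at or near 0. Psmb9, the counterpart of Psmb6, had 0 counts in the 16 oocytes, which allows up to 0.0464 CPM. Psmb8, the counterpart of Psmb5, had 3 counts in all. Psmb10, the counterpart of Psmb7, had 107 counts, all in 5 of the 7 GV oocytes, with levels up to 13.1 CPM. The testis alpha gene Psma8 had 4 counts in 1 oocyte, and Psmb11, the catalytic subunit of the thymus, had 58 counts and at most 4.81 CPM. Psmb8, Psmb9 and Psma8 did not pass the filter.

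Of the beta genes without catalytic activity, Psmb1 had the largest differences. It was at 2279 and 2077 CPM in GV young controls, 1147 and 1134 in aged controls and 890.0, 1022 and 1971 in NMN oocytes. At MII it was at 48.2, 19.2 and 15.9 CPM in MII young controls, 37.2, 17.8 and 36 in aged controls and 0, 0 and 24.1 in NMN oocytes. The MII oocytes lay at 0 to 48.2 CPM, far below the lowest GV oocyte at 890.0 CPM. In young controls the mean was 2178 ± 142 CPM at GV and 27.8 ± 17.8 CPM at MII, a 78.4-fold difference, and in aged controls and NMN mice the means differed by 37.6 and 161-fold. It is 1 of the 6 genes with the U-rich element shown above.

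Psmb4, which seals the beta ring, was at 173 and 171 CPM in GV young controls, 258 and 194 in aged controls and 375, 314 and 177 in NMN oocytes and at 9.43, 12.5 and 7.87 CPM in MII young controls, 10.2, 4.26 and 34.2 in aged controls and 0, 49.7 and 0 in NMN oocytes. All 9 MII oocytes lay below all GV oocytes. Psmb2 and Psmb3, of the same ring, had MII levels of 55.0 to 1148 CPM and 0 to 754 CPM that overlapped their GV levels. Of these 2, only Psmb2 was counted as lower, in young controls.

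In the alpha ring, Psma6 and Psma3 were lower and Psma7 was higher. Psma6 was at 388 and 231 CPM in GV young controls, 219.6 and 235 in aged controls and 307, 274 and 338 in NMN oocytes, and at 55.1, 29.9 and 14.5 CPM in MII young controls, 18.9, 29.1 and 44.7 in aged controls and 0, 0 and 15.3 in NMN oocytes. Psma3 was at 179 and 343 CPM in GV young controls, 281 and 233 in aged controls and 298, 313 and 315 in NMN oocytes, and at 80.0, 28.5 and 33.7 CPM in MII young controls, 43.4, 76.4 and 72.8 in aged controls and 11.1, 28.3 and 39.4 in NMN oocytes. Neither gene had an MII oocyte within its GV range. Psma2 and Psma5 were each counted as lower in some conditions (Psma2 in 1, Psma5 in 2), and Psma1 and Psma4 in none.

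Psma7, another alpha ring gene, went the other way. It was at 1362 and 917 CPM in GV young controls, 2001 and 642 in aged controls and 2010.3, 1706 and 1195 in NMN oocytes. The MII values were 10016, 2184 and 1883 CPM in MII young controls, 2927, 2792 and 4575 in aged controls and 621, 1169 and 3655 in NMN oocytes. MII young control 1, an oocyte of high mitochondrial share, was the highest. The MII means were 4.12-fold higher in young controls and 2.6-fold higher in aged controls, with no overlap, and 1.11-fold higher in NMN mice, where the oocytes overlapped. Neither 2-fold difference held without a certain oocyte: the log2 ratio was 0.84 in young controls without MII young control 1, and 0.78 in aged controls without GV aged control 2-1 (2.42 without GV aged control 1). None of the 50-base words of its main transcript was shared with another gene.

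**Figure D3:**
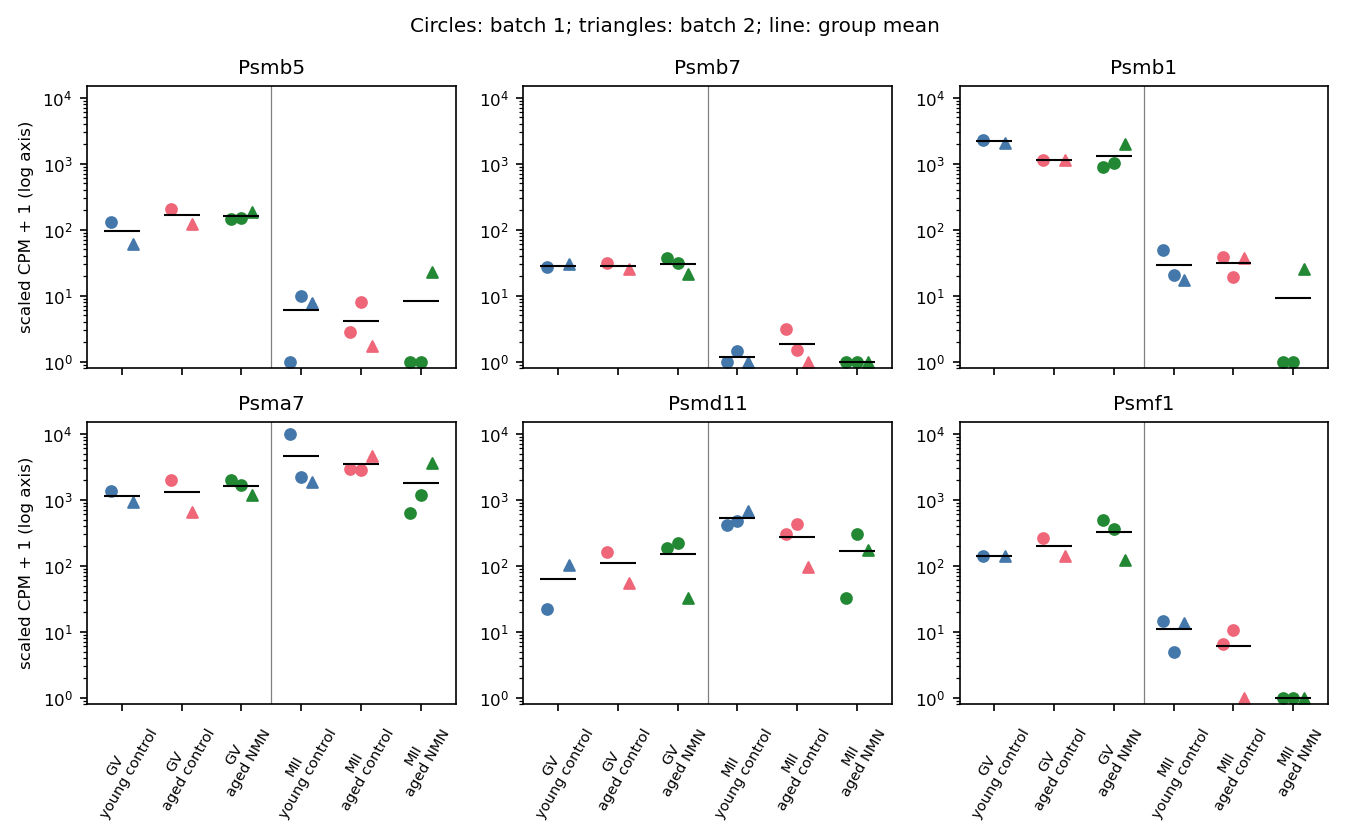
Scaled CPM with 1 added (log axis) of 6 genes in every oocyte by group, circles for batch 1, triangles for batch 2, lines for group means. Psmb5, Psmb7, Psmb1 and Psmf1 lie between 0 and 48.2 CPM in every MII oocyte, while Psma7 reaches 10016 CPM and Psmd11 678 CPM.

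The makeup of core transcripts differed between stages. Psma7 made up 10.6 to 24.6% of the summed core TPM in GV oocytes and 44.7 to 79.5% in MII oocytes, with no overlap. The SD of log2 TPM over the 14 core genes of the ordinary proteasome, a measure of how unequal their levels are, was 1.70 to 2.12 in GV and 2.80 to 3.74 in MII oocytes, also with no overlap. In MII aged NMN 1 and 2, 6 and 7 of those 14 genes had no count. The same 14 genes all had counts in every GV oocyte.

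Core against cap, as the ratio of their summed TPM, did not part the stages. It was 7.40 and 4.67 in GV young controls, 3.003 and 5.63 in aged controls and 2.81, 2.81 and 5.95 in NMN oocytes. At MII it was 7.52, 3.71 and 2.65 in young controls, 4.95, 5.42 and 15.6 in aged controls and 4.26, 2.13 and 12.3 in NMN oocytes. The GV and MII ranges overlapped in every condition. With Psma7 left out, a choice made after the values were seen, MII young controls were at 1.54, 1.75 and 0.723, all below both GV young controls at 6.18 and 4.09. In the aged groups the oocytes without Psma7 still overlapped, at 2.26 and 5.04 against 1.68, 2.43 and 8.60 in controls.

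**Figure D4:**
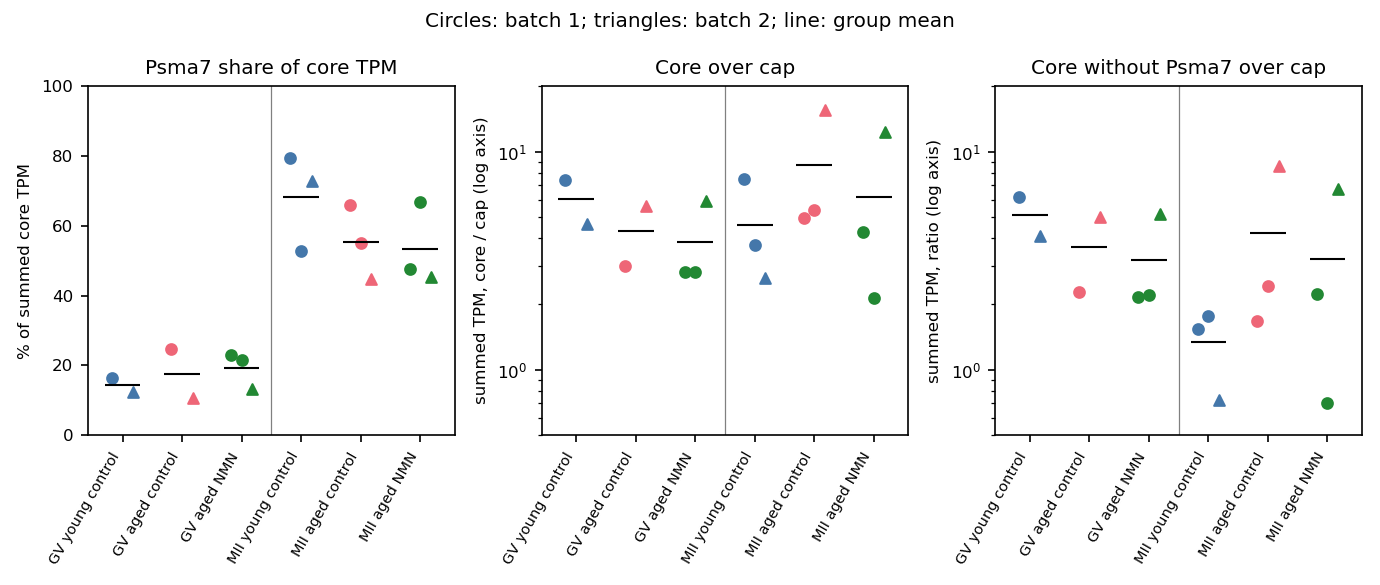
Psma7 as a percentage of summed core TPM (left), summed core over summed cap TPM (middle, log axis) and the same without Psma7 (right, log axis), per oocyte; circles are batch 1, triangles batch 2, lines group means. All MII oocytes lie above all GV oocytes in the left panel, at 44.7% or more against 24.6% or less, and the stages overlap in the middle panel.

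The ATPases of the base, which unfold the substrate, were mostly lower at MII. Of the 6, 4 were lower in young controls, 5 in aged controls and 5 in NMN mice, where 15.4%, 25.9% and 26.8% of all genes were. Without the oocytes of high mitochondrial share these counts were 4 in young controls and 6 in NMN mice (18.8% and 36.3% of all genes). Psmc2 was at 93.9 and 249.5 CPM in GV young controls, 325 and 112 in aged controls and 477, 368 and 143 in NMN oocytes, and at 5.87, 18.2 and 4.35 CPM in MII young controls, 13.2, 9.27 and 9.82 in aged controls and 0, 0 and 51.9 in NMN oocytes. Its mean was 20.3-fold lower at MII in aged controls. Psmc4 was at 70.1 and 78.9 CPM in GV young controls, 268 and 84.6 in aged controls and 371, 261 and 40.04 in NMN oocytes, and at 15.1, 22.9 and 14.5 CPM in MII young controls, 14.6, 18.5 and 0 in aged controls and 0, 0.311 and 0 in NMN oocytes. For both genes every MII oocyte was below every GV oocyte. In TPM the stages overlapped for Psmc4, which reached 28.9 at MII and was as low as 22.8 at GV. The MII NMN group held a single Psmc4 count in 3 oocytes.

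Psmc6 was the exception among the ATPases. It was at 47.7 and 19.1 CPM in GV young controls, 25.3 and 81.2 in aged controls and 79.7, 68 and 38.5 in NMN oocytes, and at 102, 84 and 105 CPM in MII young controls, 68.4, 88.4 and 4 in aged controls and 62.9, 0 and 4.07 in NMN oocytes. In young controls it was 2.9-fold higher at MII without overlap. In aged controls the oocytes overlapped and the log2 ratio was 0.010.

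The other base genes differed from each other. Psmd4, a ubiquitin receptor, was lower in aged controls (4.21-fold) and NMN mice (4.49-fold), and its levels overlapped in young controls. Psmd1, a scaffold of the base, was at 65.5 and 141 CPM in GV young controls, 40.7 and 39.8 in aged controls and 25.4, 31.3 and 109 in NMN oocytes, and at 105, 90.9 and 557 CPM in MII young controls, 59.8, 87.4 and 99.7 in aged controls and 2.77, 22.7 and 56 in NMN oocytes. It was 2.04-fold higher at MII in aged controls and overlapped in the other conditions. It did not reach 2-fold without MII aged control 2, MII aged control 2-1 or GV aged control 2-1 (lowest log2 ratio 0.85). Psmd2, the other scaffold, was not counted in any condition.

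Of the 8 lid genes, 2 were lower and 2 higher in young controls, 3 lower and 2 higher in aged controls, and 2 lower and 0 higher in NMN mice. Of all genes, 15.4% and 16.6%, 25.9% and 8.33%, and 26.8% and 3.34% were, so the lower count in NMN mice was near that share. Without the oocytes of high mitochondrial share, 2 were lower and 3 higher in young controls (18.8% and 30.8% of all genes). In NMN mice 3 were then lower and 0 higher (36.3% and 16.6%). Psmd11, a scaffold of the lid that also touches the core, was at 21.4 and 102 CPM in GV young controls, 164 and 54.8 in aged controls and 187, 224 and 32 in NMN oocytes. At MII it was at 422, 481 and 678 CPM in MII young controls, 303, 429 and 93.5 in aged controls and 31.2, 306 and 171 in NMN oocytes. All 3 MII young controls were above both GV young controls, by 8.57-fold in the mean. In aged controls and NMN mice the oocytes overlapped, with folds of 2.52 and 1.15.

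Psmd7, the inactive partner of the lid deubiquitinase, was at 98.2 and 22.5 CPM in GV young controls, 108 and 84.8 in aged controls and 104, 68.5 and 107 in NMN oocytes, and at 463, 302 and 167 CPM in MII young controls, 161, 223 and 317 in aged controls and 5.54, 272 and 135 in NMN oocytes. It was 5.15-fold higher in young and 2.42-fold higher in aged controls. MII aged NMN 1 was low and the other 8 MII oocytes were above every GV oocyte. Psmd3, another scaffold of the lid, was at 4.38 and 16.2 CPM in GV young controls, 12.6 and 3.93 in aged controls and 30.0, 22 and 7.32 in NMN oocytes, and at 0, 72.9 and 20.3 CPM in MII young controls, 18.3, 41.6 and 41.1 in aged controls and 33.2, 47.2 and 14.4 in NMN oocytes. It was 4.06-fold higher at MII in aged controls, and MII young control 1 had no count.

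Psmd14, the deubiquitinase that removes the ubiquitin chain, was lower throughout. It was at 19.1 and 60.1 CPM in GV young controls, 42 and 26.6 in aged controls and 102, 56.5 and 31.6 in NMN oocytes, and at 0, 8.42 and 5.8 CPM in MII young controls, 7.58, 0.251 and 14.9 in aged controls and 7.91, 15.8 and 0.626 in NMN oocytes. The highest MII oocyte was below the lowest GV oocyte. Its mean was 8.36, 4.52 and 7.78-fold lower in young controls, aged controls and NMN mice. Psmd6, a lid scaffold, was at 49.2 and 60.4 CPM in GV young controls, 72.4 and 85.1 in aged controls and 226, 129 and 42 in NMN oocytes, and at 44.6, 11.8 and 12.2 CPM in MII young controls, 12.7, 7.27 and 13.5 in aged controls and 0, 0 and 0.626 in NMN oocytes. It was lower in all 3 conditions, though MII young control 1 at 44.6 CPM exceeded GV aged NMN 2-1 at 42.0 CPM. Psmd13 held 91 counts in all and overlaps the antisense gene Sirt3.

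Of the 3 chaperones that assemble the base, 1 was lower in each control comparison and 3 in NMN mice (2 without the oocytes of high mitochondrial share). Of all genes, 15.4% were lower in young controls, 25.9% in aged controls and 26.8% in NMN mice (36.3% without those oocytes). A count out of 3 genes cannot be told apart from these shares. Psmd10, known as gankyrin, was lower in every condition and lay at 340 to 777 CPM before and at 0 to 331 CPM after maturation.

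Psmf1, an inhibitor of the core, had the largest log2 ratio of the 49 genes in NMN mice, -8.33. It was at 142 and 140.3 CPM in GV young controls, 260.3 and 139 in aged controls and 489.5, 355 and 121 in NMN oocytes. MII oocytes had 13.4, 3.9 and 12.8 CPM in MII young controls, 5.64, 9.52 and 0 in aged controls and 0, 0 and 0 in NMN oocytes. Its means were 14.1 and 39.5-fold lower in young and aged controls. All 3 MII NMN oocytes had 0 counts, which makes the difference there at least 959-fold. The GV NMN group held the 2 highest GV levels, which enter that bound.

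The activators open the core without the cap. Psme2, which forms a ring with the product of Psme1, was at 171 and 83.9 CPM in GV young controls, 69.7 and 99.1 in aged controls and 59.8, 59 and 97.4 in NMN oocytes, and at 0, 1.71 and 2.69 CPM in MII young controls, 9.52, 3.01 and 18.2 in aged controls and 0, 0 and 58.5 in NMN oocytes. Its levels did not overlap between stages, though only just, at up to 58.5 CPM at MII and from 59 CPM at GV. In TPM they overlapped, at up to 91.3 at MII and from 79.6 at GV. The mean level was 86.8-fold lower in young controls. Its main transcript shares 59.3% of its 50-base words, mostly with Psme2b, so the 2 may have exchanged reads. Psme1 held 22 counts, all in 2 MII oocytes. Psme4, an activator of nuclear proteasomes, was at 47.2 and 177 CPM in GV young controls, 71.5 and 122 in aged controls and 29.5, 45.1 and 78.9 in NMN oocytes, and at 21.4, 137 and 209 CPM in MII young controls, 99.1, 159.6 and 116 in aged controls and 195, 1.55 and 106 in NMN oocytes. It overlapped between stages in all 3 conditions, as did Psme3.

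Psmg4, a chaperone of alpha ring assembly, was lower in every condition. It was at 121 and 119.7 CPM in GV young controls, 48.5 and 44 in aged controls and 57.9, 49.7 and 88.6 in NMN oocytes, and at 0, 2.49 and 2.48 CPM in MII young controls, 4.05, 2.25 and 7.28 in aged controls and 0, 0 and 2.19 in NMN oocytes. No MII oocyte exceeded 7.28 CPM. Its partner genes differed from it. Psmg1 kept 55.1 to 186 CPM at MII against 118 to 168 CPM in GV oocytes and was counted in no condition, Psmg3 was counted as lower in NMN mice, and Psmg2, with 43 counts in all, in aged controls.

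Few of the genes differed with age among GV oocytes. Of the 49 genes, 3 were lower in aged than in young controls and 2 were higher, where 5.69% and 19.7% of all genes were. The age and maturation comparisons share oocytes, as do the NMN and age comparisons. Psmg4 was at 121 and 119.7 CPM in young and 48.5 and 44 CPM in aged controls, 2.6-fold lower. Psmd1 was at 65.5 and 141 against 40.7 and 39.8 CPM, 2.56-fold lower. The third lower gene was Psme2b, at 3.87 and 9.93 against 0.527 and 1.23 CPM. Psmc4 was at 70.1 and 78.9 against 268 and 84.6 CPM, 2.36-fold higher, and Psmg2, also higher, had at most 2.71 CPM. Psmc4 no longer passed without GV aged control 1 (log2 ratio 0.18), Psmg2 without GV aged control 2-1 (0.23) and Psmd1 without GV young control 2-2 (-0.69), and Psme2b was at -1.37 without the latter. Markers of immune cells (10 genes) summed to 0 to 2.84 CPM in young, 9.84 to 237 CPM in aged control and 21.6 to 172 CPM in NMN oocytes at this stage, with a count in 1, 2 and 4 of the 10, and reached 43.0 CPM at MII. Their part in the results was not tested.

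Some GV differences with age were under 2-fold. Psmb1 was at 2279 and 2077 CPM in young and 1147 and 1134 CPM in aged controls, 1.91-fold lower without overlap. Psmd12, of the lid, was at 308 and 382 against 294 and 188 CPM. Psmd6 was at 49.2 and 60.4 against 72.4 and 85.1 CPM, and Psmb4 at 173 and 171 against 258 and 194 CPM, both higher with age without overlap. The median log2 ratio was 0.067 for core and 0.28 for cap genes, against 0.29 for all genes. The cap median was 1.00 within batch 1 and -0.78 within batch 2, with 1 oocyte per group in each, so the direction of the cap differed between batches. Genes higher with age numbered 12 without GV young control 2-2, 8 without GV aged control 2-1 and 6 without GV young control 1, and 5 were lower without GV young control 1 or GV aged control 1. The share of all genes is not given for these counts, and the no-overlap rule is looser for every gene with an oocyte left out. GV young control 1 was also deposited as a batch 2 library, and with it in batch 2 the cap median there was -0.28.

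Among MII oocytes 2 of the 49 genes were lower and 1 was higher in aged than in young controls, with 5.39% and 1.76% of all genes in those directions. Both counts were near those shares. The lower genes were 2 chaperones of the base. Psmd5 was at 41.9, 32.7 and 101 CPM in young and 9.69, 26.3 and 0 CPM in aged controls, 4.87-fold lower. Psmd9 was at 156, 135 and 89.2 against 55.9, 57.9 and 9.09 CPM, 3.1-fold lower, and it overlaps the antisense gene Hpd. Psme2 was higher, at 0, 1.71 and 2.69 against 9.52, 3.01 and 18.2 CPM. Without MII young control 1, the oocyte of high mitochondrial share, 4 genes were lower and 4 higher, where 14.2% and 4.93% of all genes were. The core median was 0.23 with that oocyte and 0.69 without it, and the cap median was -0.63 and -0.28. Without MII aged control 2, 5 were lower and 2 higher, and without MII young control 2 or 2-1, 4 were lower. Without MII aged control 1 or MII young control 2, 2 were higher. The counts without an oocyte other than MII young control 1 are given without the share of all genes. The log2 ratio of Psmd5 was -3.35 without MII aged control 2 and -1.56 without MII young control 2-1, and that of Psme2 was 1.56 without MII aged control 2-1.

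Among GV oocytes 0 of the 49 genes were lower and 0 higher in NMN than in aged control oocytes, where 5.39% and 2.61% of all genes were. The largest differences without overlap were those of Psma5 (aged controls 243 and 127 CPM, NMN 329, 313 and 249 CPM, 1.61-fold higher), Psmg4 (1.41-fold), Psma4 (1.37-fold) and Psma6 (1.35-fold). Psma4 was at 127 and 112 CPM in controls and 183, 164 and 144 CPM in NMN oocytes, and Psma6 at 219.6 and 235 against 307, 274 and 338 CPM. The median log2 ratio was 0.28 for core and 0.44 for cap genes, with 0.0064 for all genes. Without GV aged control 1, 9 genes were higher and the cap median was 1.13, and without GV aged control 2-1 or GV aged NMN 2-1, 3 and 5 were higher. Without GV aged control 1 or GV aged NMN 2-1, 1 gene was lower. The counts thus moved with single oocytes, but the share of all genes is not given for them. The no-overlap rule is looser for every gene with an oocyte left out.

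Among MII oocytes 5 of the 49 genes were lower with NMN and 0 were higher, against 11.3% and 1.31% of all genes. Both counts were near those shares, so the values below describe single genes. Psma3 was at 43.4, 76.4 and 72.8 CPM in aged controls and 11.1, 28.3 and 39.4 CPM in NMN oocytes, 2.44-fold lower. Psma6 was at 18.9, 29.1 and 44.7 against 0, 0 and 15.3 CPM, 6.04-fold lower. Psmd1 was at 59.8, 87.4 and 99.7 against 2.77, 22.7 and 56 CPM, 3.03-fold lower. Psmd6 held 2 counts in the 3 NMN oocytes against 138 in aged controls, and the fifth gene was Psmg4. Psma3 no longer passed without MII aged NMN 1 (log2 ratio -0.90). Without MII aged NMN 2-1 the log2 ratio was -4.99 for Psma6, -2.60 for Psmd1 and -2.47 for Psmg4.

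The NMN oocytes at MII did not form 1 level. The 49 genes took 0.164 and 0.231% of the counts in MII aged NMN 1 and 2 and 0.971% in MII aged NMN 2-1, where MII aged controls had 0.829 to 1.14% and GV oocytes 1.01 to 1.495%. Of the 49 genes, 23, 23 and 36 had a count. The mitochondrial share of the same 3 oocytes was 43.0, 33.2 and 6.18%, and its part in the result was not tested. With the batch 2 oocyte alone, 6 genes were lower and 5 higher than in aged controls, where 19.6% and 11.3% of all genes were. The core median then moved from -0.88 to -0.058. Without MII aged NMN 2-1, 18 genes were lower and the core and cap medians were -1.85 and -1.47. Without MII aged control 2-1, 11 were lower and the core median was -0.13, and without MII aged NMN 2, 9 were lower. The counts of 18, 11 and 9 are given without the share of all genes, for which the no-overlap rule is looser too.

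Cap genes of aged GV oocytes differed by batch. This comparison was added after the values were seen. It sets the 3 aged GV oocytes of batch 1 (1 control, 2 NMN) against the 2 of batch 2 (1 control, 1 NMN). The titles of those 3 oocytes name no batch, and they were placed in batch 1 for that reason. Of the 49 genes, 15 were higher in batch 1 and 1 was lower, where 21.7% and 11% of all genes were. The 1 became 2 without GV aged control 1 or GV aged NMN 2-1 and 0 without GV aged NMN 2. The higher genes were 12 of the 20 cap genes, 2 of the 19 core genes (Psma1 and Psma7) and Psmf1. Of the 15, 10 passed whichever oocyte was left out. Psma7 and Psmc3 no longer passed without GV aged control 2-1, Psmd13 and Psmd14 without GV aged NMN 1, and Psmd9 without either. The median log2 ratio was 1.18 for cap, 0.20 for core and 0.13 for all genes.

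Psmd4, the ubiquitin receptor of the base, was at 1499, 1508 and 1519 CPM in batch 1 and 299 and 509 CPM in batch 2, 3.73-fold higher. Psmc4 was at 268, 371 and 261 against 84.6 and 40.04 CPM, 4.82-fold higher. Psmd11 was at 164, 187 and 224 against 54.8 and 32 CPM, 4.41-fold higher. Psmd8, of the lid, was at 251, 334 and 262 against 93.2 and 62.4 CPM. In each of these genes all 3 oocytes of batch 1, from control and NMN mice, lay above both oocytes of batch 2. Psme4 was the gene lower in batch 1, at 71.5, 29.5 and 45.1 against 122 and 78.9 CPM. Its log2 ratio was -1.03, and it no longer passed without GV aged NMN 1, GV aged NMN 2 or GV aged control 2-1. Psmd5 (20.7, 39.2 and 23.7 against 47.2 and 45 CPM) and Psme2 (69.7, 59.8 and 59 against 99.1 and 97.4 CPM) were lower by less than 2-fold. Of the catalytic genes, Psmb5 and Psmb6 overlapped between batches, and Psmb7 was higher in batch 1 without overlap, at 30.4, 35.9 and 29.6 against 24.3 and 20.4 CPM, by less than 2-fold. The batch and any difference of the mice between batches cannot be told apart.

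**Figure D5:**
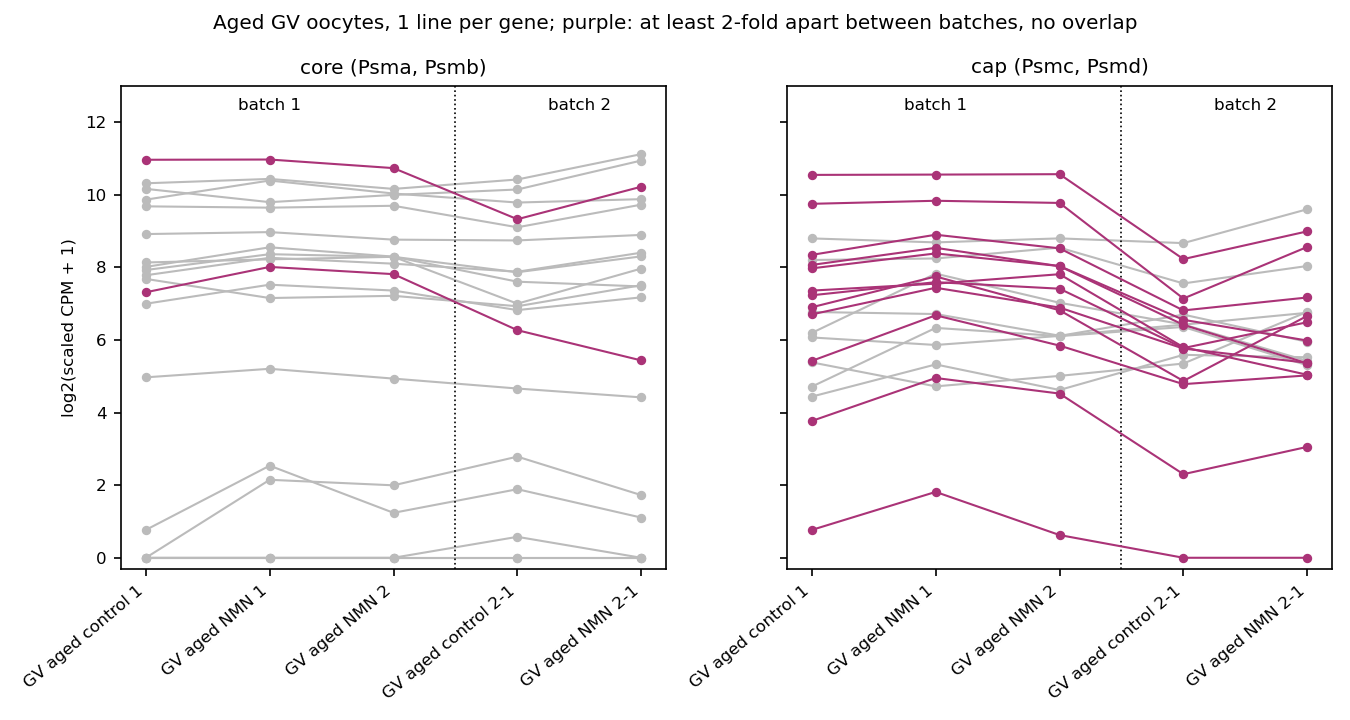
Log2 of scaled CPM with 1 added for each core gene (left) and cap gene (right) in the 5 aged GV oocytes, 1 line per gene, the dotted line parting batch 1 from batch 2. Purple lines, 2 in the core and 12 in the cap panel, are at least 2-fold apart without overlap.

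Genes that work with the proteasome were looked at beside it. Of 24 such genes (the maturation factor Pomp, the lid subunit gene Sem1, the ubiquitin receptor gene Adrm1, the transcription factor gene Nfe2l1, shuttle factors and ubiquitin enzymes), 23 were matched and all of these passed the filter. In young controls 2 were lower at MII (Pomp and Sem1) and 4 higher. In aged controls 1 was lower and 3 were higher, and in NMN mice 7 were lower and 0 higher. The shares of all genes are those given above for the same comparisons: 15.4% and 16.6%, 25.9% and 8.33%, and 26.8% and 3.34%. Without the oocytes of high mitochondrial share, 4 were lower and 10 higher in young controls (18.8% and 30.8% of all genes), and 6 were lower and 8 higher in NMN mice (36.3% and 16.6%). Pomp, which guides beta ring assembly, was at 407 ± 56.2 CPM in GV and 138 ± 155 CPM in MII young controls. Sem1 was at 401 ± 70.6 and 79.3 ± 72.5 CPM. The median log2 ratio of the 23 genes was 0.50, -0.51 and 0.090 in young controls, aged controls and NMN mice, where that of the proteasome genes was -1.23, -1.32 and -1.83.

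Proteasome transcripts are short, which the choice of genes did not use. The median length was 1032 bases for the core genes, 1541 for the cap genes and 1954 for all genes that passed the filter. Across all genes, those of up to 1000 bases had a median log2 ratio of -0.93 from GV to MII in young controls, and those of 1000 to 2000 bases had 0.33. In aged controls these medians were -1.06 and -0.54, and in NMN mice -1.41 and -1.12. Across the 45 proteasome genes Spearman's rho between length and log2 ratio was 0.44, 0.15 and 0.19 in the 3 conditions, a description across genes of the same libraries. Across all genes it was 0.24, 0.23 and 0.19. Within the 16 core genes it was near 0, at 0.056, 0.076 and -0.11, and within the 20 cap genes 0.44, 0.29 and 0.36. The part of length in the stage differences was not tested.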

How the data were processed

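Each library is 1 oocyte. Per the submitters' processing notes, TopHat2 2.1.1, Cufflinks, Trim Galore 0.4.5 and FastQC 0.11.8 were used, and GRCm38 and mm10 are named as builds. Deposited tables carry the column names of RSEM, a tool those notes do not name, and how they were made, and whether strand was used, is not given in the sources used here. Per the file headers, the deposited expected counts are estimated counts per gene, not normalised, and were rounded to whole numbers. The deposited TPM values, per the file headers, are scaled by effective length and library and served core against cap and an alternative. Gene lengths are those deposited.

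Identifiers were matched to GENCODE vM21 (46574 of 47069). Of 18 libraries, GV young control 1 and 2-1 were identical in 47069 genes and counted as 1, in batch 1, and GV aged control 2-2, with 5009 counts, was left out, which left 16. Whether oocytes of a group came from separate mice is not stated. Batch 2 was read from titles that name it with an oocyte number, as in 2-1 or 2-2. Most titles of the libraries placed in batch 1 name no batch, so batch 1 is an inference. MII aged NMN 2, whose title says batch 2 but lacks an oocyte number, was placed in batch 1. The filterByExpr function of edgeR 4.0.16 (minimum count 10, by group) left 12161 genes, and counts were scaled with TMM factors in R 4.3.3. Alternatives were RLE size factors (DESeq2 1.42.0), library totals, TPM, 0.1 or 5 CPM added, no filter, means of logs, each batch alone, other gene sets and each oocyte left out. The ratio of means was checked on counts simulated for maturation in young controls, with the same spread set for all genes. That check does not cover the spread between these oocytes. Tables and figures used Python 3.11.15, pandas 2.3.3, numpy 2.4.6, scipy 1.17.1 and matplotlib 3.10.9.

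Genes named with all values were, per comparison and direction, up to 4 without overlap that had the largest log2 ratio and reached 10 CPM in the higher group, and the catalytic and immune pairs, Psma8, Psmb11, Psme4, Psmd14 and Psmf1. Genes, lists and comparisons were chosen with earlier results of these data known. A library under 100000 counts was dropped by rule. A floor of 3 counts in a library lay between 0.537 and 1.09 CPM, and the 95% level was used for counting intervals. Sequences and coordinates came from GENCODE vM21 on GRCm38. A gene and a sequence are not reported here.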

Additional observations from a re-analysis of the deposited data

Results flagged for a closer look

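Psma3 and Psma6, genes of the alpha ring, lay in opposite directions under NMN at the 2 stages, with no overlap between oocytes at either. The log2 ratio of Psma3, NMN over aged control, was 0.27 in GV and -1.26 in MII oocytes. That of Psma6 was 0.43 in GV and -2.38 in MII oocytes. These directions were not particular to the 2 genes. All 7 alpha ring genes were above 0 in GV oocytes, and 6 were below 0 in MII oocytes. The core medians were 0.28 and -0.88, the cap medians 0.44 and -0.78 and those of all genes 0.0064 and -0.33. Neither difference between stages was tested. At MII, Psma3 was at -0.90 without MII aged NMN 1 and Psma6 at -4.99 without MII aged NMN 2-1. Beside them, the mitochondrial share of counts was 43.0, 33.2 and 6.18% in the MII NMN oocytes.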

How the results depend on the processing

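No median moved from a 2-fold difference in one direction to one in the other under any alternative, but medians and core-to-cap differences nearer 0 changed sign, with values below. No paired analysis was possible because the results are ratios of means that come from no test. Comparisons within each batch are given instead. The maturation core median in young controls, -1.83, was -2.21 with RLE factors, -1.37 in TPM, -2.25 with 0.1 CPM added, -2.87 in batch 2 alone (-2.97 with the merged GV young library in batch 2) and -2.31 without oocytes of high mitochondrial share. The cap median there, -0.18, was -0.67 with means of logs, 0.65 in batch 1, -1.64 in batch 2 (-1.68 with the merged library) and -0.78 without those oocytes (0.043 in TPM). In aged controls the core median, -1.65, was -1.14 in TPM, -2.09 with 0.1 and -0.59 with 5 CPM added, -0.92 without a filter, -1.31 with means of logs, -1.24 in batch 1, -1.21 with the low library kept and -1.24 without immune and tissue-specific genes. The cap median, -1.73, was -1.26 in batch 2 and -1.17 with the low library. In NMN mice the cap median, -1.98, was -3.24 with means of logs and -4.34 in batch 1 with MII aged NMN 2 in batch 2. Without oocytes of high mitochondrial share 3 genes were higher there (16.6% of all genes).

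For age in GV oocytes the core median, 0.067, was 0.24 with library totals, 0.39 in TPM, 0.23 in batch 1, -0.067 in batch 2 (-0.15 with the merged library) and -0.50 with the low library. The cap median, 0.28, was 1.00 in batch 1, -0.78 in batch 2 (-0.28 with the merged library) and -0.30 with the low library. Genes higher with age numbered 4 with library totals and 7 in TPM, against 2. In MII oocytes the core median, 0.23, was -0.29 in batch 1, 1.42 in batch 2 and 0.69 without oocytes of high mitochondrial share, and the cap median was 0.19 in batch 2. Without those oocytes 4 genes were lower and 4 higher (14.2% and 4.93% of all genes). For NMN in GV oocytes the core median, 0.28, was 0.057 with library totals, 0.061 in TPM and 0.78 with the low library, and 1 gene was lower with library totals and in TPM. In MII oocytes the cap median was -3.48 in batch 1 with MII aged NMN 2 in batch 2. The 5 lower genes became 2 with RLE factors and 9 in TPM. With oocytes of high mitochondrial share left out, 5 genes were higher (11.3% of all genes). The MII minus GV log2 core-to-cap ratio, -0.49, 0.86 and 0.42 in young controls, aged controls and NMN mice, was -1.96, -0.62 and -0.72 as a ratio of medians (the last with MII aged NMN 2-1 as the single MII oocyte, since a median was 0 in the other two), -2.01, -0.045 and -0.40 without Psma7, and 1.77 in NMN mice without oocytes of high mitochondrial share. In these cases the cause was not tested.

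Leaving out 1 oocyte at a time gave maturation medians of -2.31 to -1.46 (core) and -0.78 to 0.27 (cap) in young controls, -1.81 to -0.74 and -1.83 to -1.13 in aged controls and -3.64 to -1.99 and -2.52 to -1.66 in NMN mice. Lower genes numbered 19 to 25, 22 to 26 and 26 to 33, and higher genes 4 to 9, 2 to 6 and 0 to 1. For age the medians were -0.15 to 0.39 and -0.28 to 0.71 in GV and -0.0070 to 0.69 and -0.78 to -0.28 in MII oocytes, with 3 to 5 lower and 3 to 12 higher genes in GV and 2 to 5 lower and 1 to 4 higher in MII oocytes. For NMN they were 0.16 to 0.38 and 0.090 to 1.13 in GV and -1.85 to -0.13 and -1.47 to -0.22 in MII oocytes. Lower genes numbered 0 to 1 in GV and 4 to 18 in MII oocytes, and higher genes 0 to 9 and 0. The core-to-cap difference ran from -0.91 to -0.15, from 0.33 to 1.31 and from -0.26 to 1.00. Between batches 0 to 2 genes were lower and 12 to 16 higher. Gene counts in these ranges are given without the share of all genes, for which leaving out an oocyte loosens the no-overlap rule too.

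The median of all genes from GV to MII in young controls was 0.35 with TMM, 0.10 with RLE factors, 0.46 with library totals and 0.67 in TPM. Libraries of 2756181 to 5586894 counts limit what can be said of genes under about 1 CPM, and groups of 2 or 3 oocytes limit every comparison.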
